A study of Mus musculus with 3 samples.

Results

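The genes described here are 10 transcripts of the hormone-producing cells of the gut, matched by symbol among the 51912 genes listed in the deposited matrices. They are the granins Chga and Chgb, the serotonin-synthesis gene Tph1, and the peptide hormone genes Gip, Cck, Ghrl, Sct, Sst, Gcg and Nts. The list was chosen by the levels of hormone genes in cKO and WT cells of these same libraries, so its levels are given as a description and without a test. UMIs (unique molecular identifiers, each marking 1 captured transcript) were taken over cells with at least 1000 genes and at most 15% mitochondrial UMIs, which left 5594 cells. Single-cell RNA-seq had been performed on intestinal crypt cells of adult mice, sorted as DAPI-, Epcam+, CD45- and CD31-. There were 2 libraries of VillinCreERT2; Arid3a fl/fl mice (Arid3a cKO 1 and Arid3a cKO 2) and 1 library of the VillinCreERT2 control (WT). Animals of both genotypes carried the recombinase and were given tamoxifen when 8 to 10 weeks old, and tissue was taken 1 month after the first injection. Villin drives the recombinase in the intestinal epithelium as a whole, so Arid3a was targeted in every epithelial lineage and not in hormone cells alone. A second WT library was not analysed here, and WT therefore has no replicate spread.

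Enteroendocrine cells are rare secretory cells scattered through the intestinal epithelium that sense luminal nutrients and release hormones at their base. Each cell makes a subset of the hormones: enterochromaffin cells make serotonin by way of Tph1, K cells make Gip, I cells Cck, L cells Gcg, N cells Nts, S cells Sct, X cells Ghrl and D cells Sst, with a good deal of overlap. Chga and Chgb encode acidic proteins that help to pack these products into dense-core granules. The lineage arises from crypt progenitors under the basic helix-loop-helix factors Neurog3 and Neurod1, which bind E-boxes, and Arid3a is a transcription factor with an AT-rich interaction domain.

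Promoter sequences of all 10 members were read from RefSeq (GRCm38.p6), as the 250 bases upstream of each annotated start, in 14 windows since Ghrl and Tph1 have several starts. Shown here are the windows of the genes whose levels differed most between genotypes below (Cck, Sct and Nts lower in the cKO libraries, Sst higher in their hormone cells), 5′ to 3′ on the strand of the gene. Capitals mark E-boxes (CANNTG) and the cyclic AMP response element (CRE, TGACGTCA), each searched on both strands.
Cck, chr9:121495695-121495944, minus strand: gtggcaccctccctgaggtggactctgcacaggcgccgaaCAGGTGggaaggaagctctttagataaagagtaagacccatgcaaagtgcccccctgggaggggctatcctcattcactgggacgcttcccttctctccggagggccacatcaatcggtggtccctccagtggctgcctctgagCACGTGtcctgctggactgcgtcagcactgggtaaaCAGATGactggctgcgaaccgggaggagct
Sct, chr7:141279134-141279383, minus strand: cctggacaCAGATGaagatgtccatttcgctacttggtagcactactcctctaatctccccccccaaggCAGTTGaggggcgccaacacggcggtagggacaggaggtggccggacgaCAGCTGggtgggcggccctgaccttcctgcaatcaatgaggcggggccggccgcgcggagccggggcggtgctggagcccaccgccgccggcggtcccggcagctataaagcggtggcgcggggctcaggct
Nts, chr10:102490419-102490668, minus strand: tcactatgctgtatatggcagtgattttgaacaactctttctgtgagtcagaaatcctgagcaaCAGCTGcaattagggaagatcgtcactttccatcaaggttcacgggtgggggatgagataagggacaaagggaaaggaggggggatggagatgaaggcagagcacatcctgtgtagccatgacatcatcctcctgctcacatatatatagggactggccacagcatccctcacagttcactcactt
Sst, chr16:23890845-23891094, minus strand: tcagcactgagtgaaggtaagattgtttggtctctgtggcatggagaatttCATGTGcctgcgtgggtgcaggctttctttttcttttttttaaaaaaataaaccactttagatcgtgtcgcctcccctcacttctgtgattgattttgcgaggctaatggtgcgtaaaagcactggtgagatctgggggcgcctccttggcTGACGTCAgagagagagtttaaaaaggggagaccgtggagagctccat
The Cck and Sct windows held 3 E-boxes each, the Nts and Sst windows 1 each. An E-box was found in 10 of the 14 member windows, upstream of every member but Tph1, and in 66.2% of all 32851 promoter windows of this length, so E-boxes were about as common as elsewhere. The full CRE was rarer, at 1.55% of all windows, and was present upstream of Sst (beginning 48 bases before the start) and of Chgb (72 bases before the start). The AT-rich word ATTAAA, searched for ARID3A on both strands, occurred in 12.7% of all windows and in 1 of the 14 member windows, at a second start of Tph1. The 4 windows printed held no ATTAAA match, and their E-box and CRE matches did not overlap. A match describes these letters only.

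The 3 matrices held 25554 barcodes, of which 2134, 1550 and 1910 were kept in Arid3a cKO 1, Arid3a cKO 2 and WT (this order holds throughout), with 58169310 to 70922480 UMIs per library. Of all barcodes, 66.4% to 79.2% per library exceeded the mitochondrial limit. Kept cells of different libraries shared 0 to 2 barcodes. Arid3a itself was at 0.592, 0.894 and 2.57 CPM (UMI counts scaled to a total of 1000000) over kept cells, from 42, 52 and 161 UMIs, and in enteroendocrine-like cells it had 4, 5 and 32 UMIs. Counting near the 3′ end does not measure the deleted part of the gene separately.

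With the 10 members left out of the clustering, 174 cells (45, 43 and 86) formed 1 enteroendocrine-like cluster. Its top 50 genes held 13 of 20 enteroendocrine markers, and all 20 were detected in each library, among them Neurod1, Cpe and Scg2. Enteroendocrine-like cells were 2.11% (95% interval 1.54 to 2.81%), 2.77% (2.02 to 3.72%) and 4.50% (3.62 to 5.53%) of kept cells. The share was highest in WT, with an interval that overlapped that of Arid3a cKO 2 and not that of Arid3a cKO 1. Markers of other cell types within the cluster differed by library: the 16 enterocyte markers summed to 3217, 14320 and 9120 CPM, 10 goblet markers to 8182, 4172 and 6425 CPM, and 10 stem markers to 621, 1226 and 272 CPM. Markers of immune, endothelial and fibroblast origin summed to at most 1.35, 7.41 and 3.38 CPM, with 7 of 10, 3 of 4 and 4 of 5 of them at 0 in all libraries. The part of these marker levels in the values below was not tested.

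Over all kept cells, 9 of the 10 members lay below WT in both cKO libraries and 1, Sst, lay above WT in both. Of the 9, Gcg did so in 6 of 8 alternative settings and the others in all 8. Of all 5336 genes with a mean of at least 20 CPM, 32.8% lay below WT in both and 43% above. The median of the members, as the mean log2 ratio to WT of CPM + 5, was -0.82, against 0.02 for all genes. By the rule of size used here (a log2 ratio of at least 1 in size, in the same direction, in both cKO libraries), Cck, Sct and Nts were called lower and no member higher, which is 3 of 10, while 0.356% of all genes were called in either direction, 0.281% lower and 0.075% higher. All 10 members passed the 20 CPM limit. Nts did so only through its WT level (1.03, 8.60 and 73.0 CPM), so its place in the count of 3 leans on the library where it is high. Tph1, at 15.5, 21.4 and 37.4 CPM, leaned on WT in part to pass and was not called. With no minimum CPM the same 3 members were called. Between members, the difference from WT is compared below by ratios, since CPM from 3′ counting is not scaled by length and capture differs between genes. Where members are ranked or given as shares of member UMIs, the order is that of captured UMIs only.

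Sct, which encodes secretin, the signal for bicarbonate secretion by the pancreas (ENSMUSG00000038580, chromosome 7, 141278330 to 141279133, minus strand, GRCm38, protein-coding), was at 187.5 CPM (95% counting interval 184 to 191), 363 CPM (358 to 368) and 1284 CPM (1275 to 1293) over all kept cells. WT was 6.85-fold above Arid3a cKO 1 and 3.54-fold above Arid3a cKO 2. Cck, encoding cholecystokinin, which empties the gallbladder and curbs feeding (ENSMUSG00000032532, chromosome 9, 121489824 to 121495694, minus strand), was at 355, 299.9 and 1072 CPM. Both cKO libraries were close to each other for Cck and 3.02- and 3.58-fold below WT. Nts, encoding neurotensin (ENSMUSG00000019890, chromosome 10, 102481756 to 102490486, minus strand), was at 1.03, 8.60 and 73.0 CPM. Its WT count was 4577 UMIs, against 73 and 500.

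Gip, the glucose-dependent insulinotropic polypeptide gene (ENSMUSG00000014351, chromosome 11, 96024545 to 96030831, plus strand), was at 177, 365.5 and 718 CPM. Its log2 ratios were -1.99 and -0.97, the latter under the size asked for. Without the cells marked by the doublet caller Scrublet the latter was -0.65, and both reached a size of 1 in 2 of 8 alternative settings. Tph1 (ENSMUSG00000040046, chromosome 7, 46644641 to 46672537, minus strand), the rate-limiting enzyme of serotonin synthesis outside the brain, was at 15.5, 21.4 and 37.4 CPM. Chgb (ENSMUSG00000027350, chromosome 2, 132781278 to 132795079, plus strand) was at 322, 321 and 553 CPM and Chga (ENSMUSG00000021194, chromosome 12, 102554969 to 102565028, plus strand) at 69.4, 98.0 and 126 CPM. The granins thus showed the lower ratio with little spread between the cKO libraries for Chgb (log2 ratios of -0.77 and -0.78) and more for Chga (-0.82 and -0.35).

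Ghrl, the gene of the hunger hormone ghrelin (ENSMUSG00000064177, chromosome 6, 113716119 to 113719880, minus strand), was at 614, 594 and 888 CPM. The predicted genes Gm26982 and Gm44033 overlap Ghrl on the opposite strand, and no other member overlaps an annotated gene. Gcg, the proglucagon gene from which L cells make GLP-1 (ENSMUSG00000000394, chromosome 2, 62474530 to 62483650, minus strand), was at 74.0, 37.7 and 87.3 CPM. Sst, the somatostatin gene, whose product restrains the other hormone cells (ENSMUSG00000004366, chromosome 16, 23889573 to 23890958, minus strand), stood apart, at 272 CPM (268 to 276), 239.5 CPM (235.5 to 243.5) and 135 CPM (132 to 137.5). It lay 2.02-fold and 1.78-fold above WT, log2 ratios of 0.99 and 0.81, but in cells with at least 2000 genes and at most 10% mitochondrial UMIs the latter was 0.16.

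**Figure D1:**
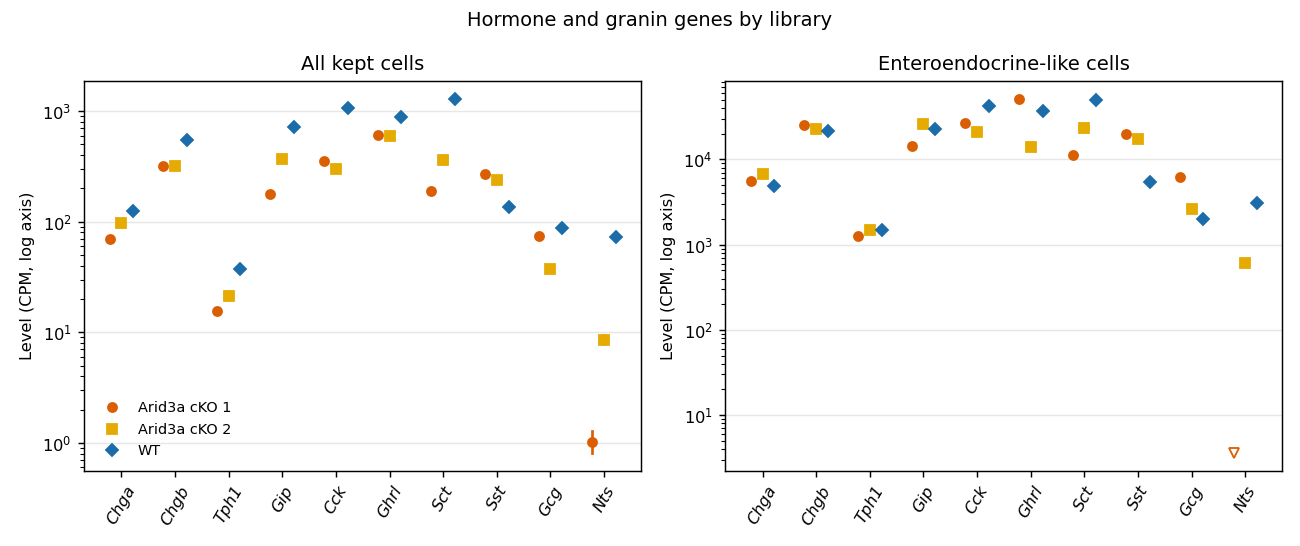
Level of each member in CPM (log axis) in Arid3a cKO 1 (circles), Arid3a cKO 2 (squares) and WT (diamonds), over all kept cells (left) and in enteroendocrine-like cells (right); lines are 95% counting intervals, mostly smaller than the symbols, and the open triangle is the upper limit for Nts, which had 0 UMIs. WT lies above both cKO libraries for 9 members on the left and for 3 (Cck, Sct, Nts) on the right, while Sst lies above WT in both panels.

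Levels over all kept cells combine how many hormone cells a library holds with how much each of them makes, so the same genes were then measured within the enteroendocrine-like cells. There, 3 members (Cck, Sct and Nts) lay below WT in both cKO libraries and 4 (Chga, Chgb, Sst and Gcg) above, where 24% and 41.8% of the 6519 genes tested did so. Cck, Sct, Nts and Sst kept their side of WT in both cKO libraries in 9 of 9 alternative settings. Gcg did not in 2 of them, its log2 ratio in Arid3a cKO 2 being -1.84 without the top cell of each library and -0.59 in cells with UMIs from at least 5 enteroendocrine markers. Chga and Chgb each had 1 library below WT (-0.09 and -0.21) when cells with 500 genes and 25% mitochondrial UMIs were admitted, and Chgb also with at least 5 markers (-0.13). Sct and Nts were called lower and Sst higher, again 3 of 10, against 0.905% of all genes in either direction, 0.153% lower and 0.752% higher. The median of the members was -0.18, against 0.07 for all genes.

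Sct in these cells was at 11151 CPM (10926 to 11380), 23287 CPM (22956 to 23622) and 49710 CPM (49352 to 50071). WT was 2.13-fold above Arid3a cKO 2 and 4.46-fold above Arid3a cKO 1, so the distance between the cKO libraries was about as large as that from the nearer of them to WT. A cell was counted positive for a gene when at least 10 of every 10000 of its UMIs came from it. By that measure 27 of 45, 28 of 43 and 63 of 86 cells were Sct-positive (60%, 65.1% and 73.3%), with overlapping intervals. The median level among positive cells was 79.8, 163 and 179 UMIs per 10000. Arid3a cKO 2 was therefore near WT in the typical Sct-positive cell, and its highest cell reached 2432 per 10000 where the WT maximum was 3537.

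Nts was not detected in the 45 enteroendocrine-like cells of Arid3a cKO 1, where a count of 0 allows up to 3.58 CPM and a share of up to 6.67% of cells with an Nts UMI. It had 491 UMIs in Arid3a cKO 2 and 4537 in WT, that is 607 and 3067 CPM. WT was at least 857-fold above Arid3a cKO 1 (against a limit of 3 counts in that library) and 5.06-fold above Arid3a cKO 2. These counts rest on few cells: 0, 2 and 6 were positive, and 51.3% of the WT UMIs came from 1 cell. An Arid3a cKO 1 cell in a TA-like cluster, with 2183 Cck and 1976 Sct UMIs and 16 enteroendocrine markers, held 58 of the 73 Nts UMIs of that library. When cells with at least 5 markers were taken instead of the cluster, that cell counted and the log2 ratio of Nts in Arid3a cKO 1 was -5.26, so the size of the difference depended on the definition of the cells.

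Cck was at 26834, 21109 and 42383 CPM in enteroendocrine-like cells, with WT 1.58- and 2.01-fold above. It was positive in 12 of 45, 9 of 43 and 32 of 86 cells (26.7%, 20.9% and 37.2%, intervals overlapping). Among positive cells the medians were 661, 516.5 and 398 per 10000, with WT the lowest of the 3. Gip also had its highest positive share in WT: 6 of 45, 6 of 43 and 22 of 86 cells were positive (13.3%, 14.0% and 25.6%), while the level over the cluster was 14244, 25987 and 23026 CPM, with WT between the cKO libraries. In 4 of 9 alternative settings both cKO libraries lay below WT in Gip, with log2 ratios in Arid3a cKO 2 of -0.12 to -0.31.

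Sst was at 19944 CPM (19643 to 20248), 17137 CPM (16853 to 17424) and 5447 CPM (5329 to 5567), 3.66- and 3.15-fold above WT. Positive cells numbered 5 of 45, 7 of 43 and 5 of 86, or 11.1% (3.71 to 24.1%), 16.3% (6.81 to 30.7%) and 5.81% (1.92 to 13.1%). The shares overlapped in their intervals, and the higher level in CPM rested on 17 cells in all. In WT, 52.8% of Sst UMIs in the cluster came from a single cell.

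Gcg was at 6173, 2602 and 2017 CPM, with 6, 3 and 6 positive cells, and 93.2% of its UMIs in Arid3a cKO 2 and 67.3% in WT came from 1 cell each. Ghrl was at 51018, 14062 and 37094 CPM, WT again lying between the cKO libraries, with 15, 9 and 25 positive cells. The log2 ratio of Ghrl in Arid3a cKO 2, -1.40, was -0.03 with the wider filter and 0.07 in cells with at least 5 markers. The remaining genes were close to WT. Chga was at 5658, 6823 and 4934 CPM, Chgb at 25464, 22485 and 21334 CPM and Tph1 at 1271, 1504 and 1491 CPM, and for each of them the positive share in the cKO libraries overlapped that in WT. The granins and the enterochromaffin gene Tph1 had log2 ratios between -0.23 and 0.47 within the cluster, whereas single hormones ranged further in both directions.

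**Figure D2:**
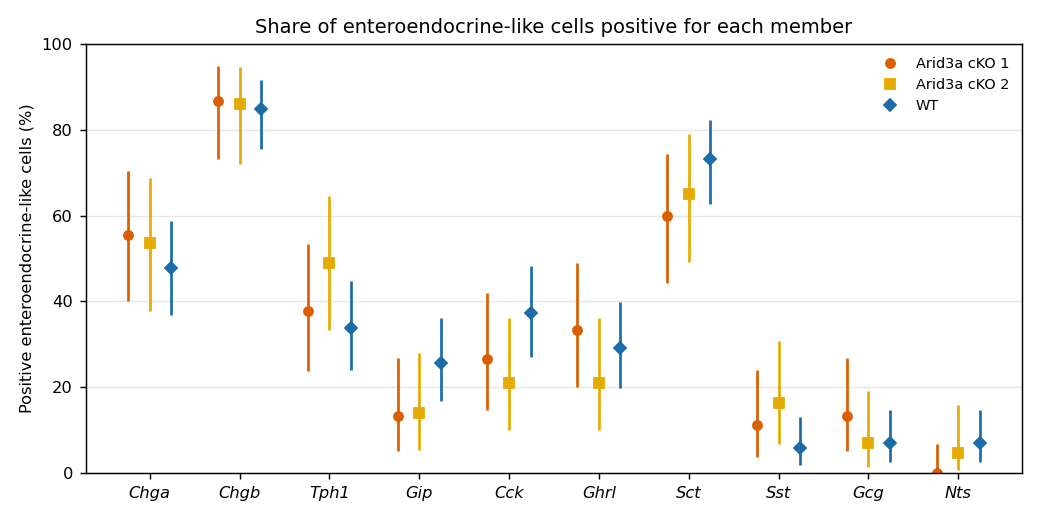
Share of enteroendocrine-like cells positive for each member (at least 10 UMIs per 10000), by library, with 95% exact binomial intervals; cells numbered 45, 43 and 86. Intervals of WT and both cKO libraries overlap for every member, with Gip, Cck, Sct and Nts having lower and Chga, Chgb, Tph1 and Sst higher point values in both cKO libraries.

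Counting intervals leave out the spread between cells, and a few cells supplied most of the UMIs of the peptide hormones. In the cluster, 2 cells of Arid3a cKO 1, 2 of Arid3a cKO 2 and 4 of WT held at least 50% of the Gip UMIs, and the figures for Ghrl were 2, 2 and 2. For Sct they were 3, 2 and 5. Chgb was spread most evenly, over 7, 8 and 14 cells, and Chga over 7, 5 and 11. When the top cell of each library was set aside for each gene, the log2 ratios stayed below 0 in both cKO libraries for Cck, Sct and Nts and above 0 for Sst, over all kept cells and within the cluster alike.

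Clustering all cells at a finer resolution of 0.8 gave 2 enteroendocrine-like clusters, with 197 cells in place of 174, and the members divided between them although none had been used to form them. The larger group (35, 30 and 65 cells) was led by Scg2, Rbp4, Isl1, Cpe and Scgn, and the smaller (17, 20 and 30 cells) by Afp, Trpa1, Reg4 and Cartpt. Every cell of the smaller group was positive for Chga and Chgb, and 94.1%, 90% and 83.3% of its cells for Tph1. Gip, Cck, Ghrl, Sst, Gcg and Nts had at most 1 positive cell there in any library, a Gip-positive WT cell. In the larger group Tph1 was positive in 2.86%, 10% and 6.15% of cells, and nearly all positive cells for the 6 hormones lay there. Other genes of these same cells formed the groups, so the division is a description. Cck, Ghrl, Sst, Gcg and Nts had as many positive cells in the larger group as in the cluster of 174 (Cck 12, 9 and 32). For these genes the cells added at the finer resolution brought no further positive cell, yet they count in the denominators of the shares.

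The smaller group made up 32.7% (20.3 to 47.1%), 40% (26.4 to 54.8%) and 31.6% (22.4 to 41.9%) of the cells of both, intervals that overlapped widely. Sct had many positive cells in both groups, and its summed CPM was lower in the cKO libraries in each. It was at 8442, 20369 and 41456 CPM in the larger group and 10543, 18424 and 42703 CPM in the smaller. The Sct-positive share was highest in WT in the larger group (45.7%, 43.3% and 63.1%). In the smaller group WT lay between the cKO libraries in that share (64.7%, 75% and 73.3%). In WT both groups had nearly the same level, but that of the smaller group rested largely on few cells. Most of its 21618 Sct UMIs in WT came from a cell at 3537 and another at 2882 UMIs per 10000. Whether WT would stay above Arid3a cKO 2 in the smaller group without these cells was not tested. Sst in the larger group was at 21374, 22846 and 6433 CPM, and Cck at 28760, 28133 and 50046 CPM. Chga was at 16649, 15029 and 13341 CPM in the smaller group.

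Single cells carried more than 1 member. At least 2 were positive in 44 of 45, 40 of 43 and 81 of 86 cells, and at least 2 of the 7 peptide hormones in 40%, 37.2% and 50% of cells. 1 cell, in Arid3a cKO 2, was positive for none. By the peptide hormone with the most UMIs, Sct led in 24.4%, 44.2% and 37.2% of cells, Gip in 13.3%, 11.6% and 19.8%, Ghrl in 15.6%, 4.65% and 10.5%, and Sst in 11.1%, 16.3% and 5.81%. The libraries overlapped in their intervals for each of these 4.

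**Figure D3:**
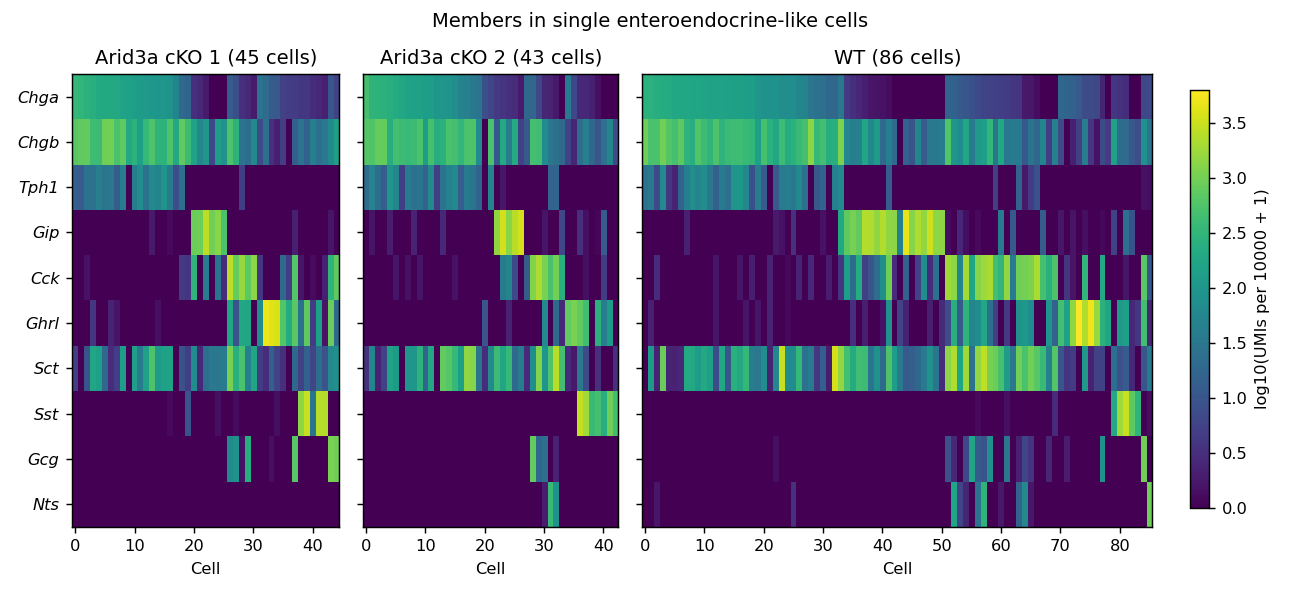
Members (rows) in each enteroendocrine-like cell (columns) of the 3 libraries, in log10 of UMIs per 10000 plus 1, with cells positive for none of Gip, Cck, Ghrl, Sst, Gcg and Nts first, by falling Chga, and the others by which of these 6 is highest. In each library a block of cells with Chga, Chgb and mostly Tph1 stands at the left, Sct runs through most blocks, and Gip, Cck, Ghrl and Sst form blocks of their own.

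The combinations were far from even. All 67 Tph1-positive cells were positive for Chgb and 62 of them for Chga. Of enteroendocrine-like cells at large, 85.6% were positive for Chgb and 51.15% for Chga. By contrast, 1 of 34 Gip-positive cells and 0 of 17 Sst-positive cells were positive for Chga. All 15 Gcg-positive and all 8 Nts-positive cells were also Cck-positive, as were 30.5% of enteroendocrine-like cells at large. Of 53 Cck-positive cells, 49 were Sct-positive, against 67.8% of enteroendocrine-like cells at large. Sst-positive cells went with Ghrl in 10 of 17 cases and with Cck or Gcg in 0, although Cck-positive and Ghrl-positive cells overlapped in 25 cells.

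Levels within the cluster gave the same layout as the counts of positive cells. Averaged over the libraries, Pearson's r over cells of log2 UMIs per 10000 was 0.77 for Chga with Tph1, 0.68 for Chga with Chgb and 0.64 for Cck with Gcg. It was negative for Chgb with Ghrl (-0.62) and for Chga with Gip (-0.49). These cells share libraries and differ in depth, so the values are descriptive. Each had the same sign in all 3 libraries.

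**Figure D4:**
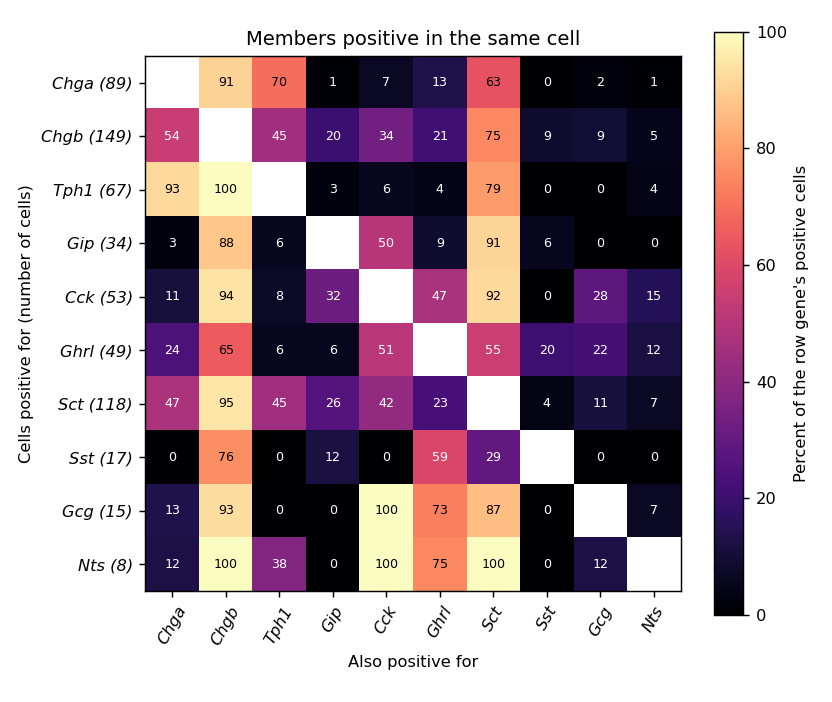
For each row gene, the percent of its positive enteroendocrine-like cells (number in brackets, all libraries) that were also positive for the column gene. The Gcg and Nts rows reach 100 under Cck, the Tph1 row reaches 100 under Chgb, and the Sst row is 0 under Chga, Tph1, Cck, Gcg and Nts.

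The genes whose pattern over enteroendocrine-like cells was most like that of each member were found among those seen in at least 10% of the cells in every library, by the mean of the 3 within-library correlations (45, 43 and 86 cells). Gip was matched most closely by Cnr1, the cannabinoid receptor (r of 0.94, 0.96 and 0.90), followed by Sphkap and Gatm. Sst was matched by the ion channel gene Asic5 (0.90, 0.96 and 0.83), then by Acot7. Cck was nearest to the fatty acid receptor gene Ffar1 (mean 0.85), the granin Scg2 and the transcription factor Etv1, and Gcg to Etv1 (mean 0.77), Fars2 and Rnf130.

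For the enterochromaffin set, Chga was nearest to the transcription factor Lmx1a (mean 0.84), Tpbg and the vesicular monoamine transporter Slc18a1. Slc18a1 was also first for Tph1 (0.83), ahead of Krt19 and Lmx1a, and followed Scn3a (0.71) and Selenop for Chgb. Ghrl was nearest to Ceacam10 (0.69) and Maged2, with Mboat4, the enzyme that acylates ghrelin, next (0.60). Sct was nearest to Sis, the brush-border sucrase-isomaltase (0.71), Myl7 and Gsdma. Nts, at 0 in Arid3a cKO 1, had no value.

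Most member transcripts lay within the cluster: 91.6%, 80.4% and 90.4% of all member UMIs, where they made up 16.2%, 13.6% and 19.1% of the cells' UMIs. Of the member UMIs outside, 68.8%, 86.6% and 79.4% came from 5, 1 and 9 cells in which members were at least 0.5% of UMIs. Scrublet, a doublet caller, marked 4 of the 9 WT cells and none of the others. Some genes rested in part on these few cells. A stem-like and a TA-like WT cell, both marked by Scrublet, held 5011 and 3910 of the 45039 WT Gip UMIs. An Arid3a cKO 2 cell of an unnamed cluster with high UMI counts (50 cells, median 51476 UMIs) held 22908 Ghrl UMIs, 66.4% of that library's total, and 2 WT cells of the same cluster held 1481 and 885 of the 5471 WT Gcg UMIs.

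The latter 2 WT cells had a like make-up, with Cck at 2348 and 1417 UMIs, Ghrl at 210 and 128, Sct at 244 and 149, and Chgb at 189 and 119. Over the 5 members with enough counts their ratio stayed between 1.59 and 1.67, though their total UMIs differed by a factor of 1.21 and their barcodes at 14 positions. Pearson's r between them over genes was 0.91. Without the unnamed cluster, which was left out as an alternative chosen after the data were seen, the mean log2 ratio of Ghrl over kept cells was -1.33 and that of Gcg 0.08, so that Gcg no longer lay below WT on average. Cck, Sct and Nts were called lower without it as well.

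In other cells, below 0.5% member UMIs, Sct stood out among the members. It was at 186.5 CPM (171.5 to 202), 281 CPM (265 to 299) and 265 CPM (249.7 to 282) in goblet-like cells and at 359 CPM (304 to 421), 237 CPM (192 to 289) and 509 CPM (446 to 579) in tuft-like cells. In stem-like cells it was at 4.68, 7.80 and 10.3 CPM and in enterocyte-like cells at 19.6, 22.4 and 29.9 CPM. Chgb in the same tuft-like cells had 5, 0 and 3 UMIs. At least 1 Sct UMI was seen in 94.6%, 80% and 97.5% of tuft-like cells (median 8991, 13284 and 8882 UMIs per cell), against 40.1%, 43.9% and 49.4% of the deeper enterocyte-like cells (31876, 34774 and 30399 UMIs).

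Sct took 83.6%, 93.3% and 86.3% of the member UMIs of tuft-like cells and 84.7%, 93.8% and 86.6% of those of goblet-like cells. Within the enteroendocrine-like cluster it took 6.89%, 17.2% and 26.1%, so the ratio of Sct to the other members differed between these cells and the hormone cells in each library. Tuft-like cells of WT were above both cKO libraries in Sct, whereas WT lay between the cKO libraries in goblet-like cells. The tuft-like difference rested on few cells, which counting intervals leave out: 2 of 37, 2 of 20 and 8 of 40 were Sct-positive. Without the positive cells the tuft-like levels were 305, 151 and 321.5 CPM, with WT near Arid3a cKO 1.

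**Figure D5:**
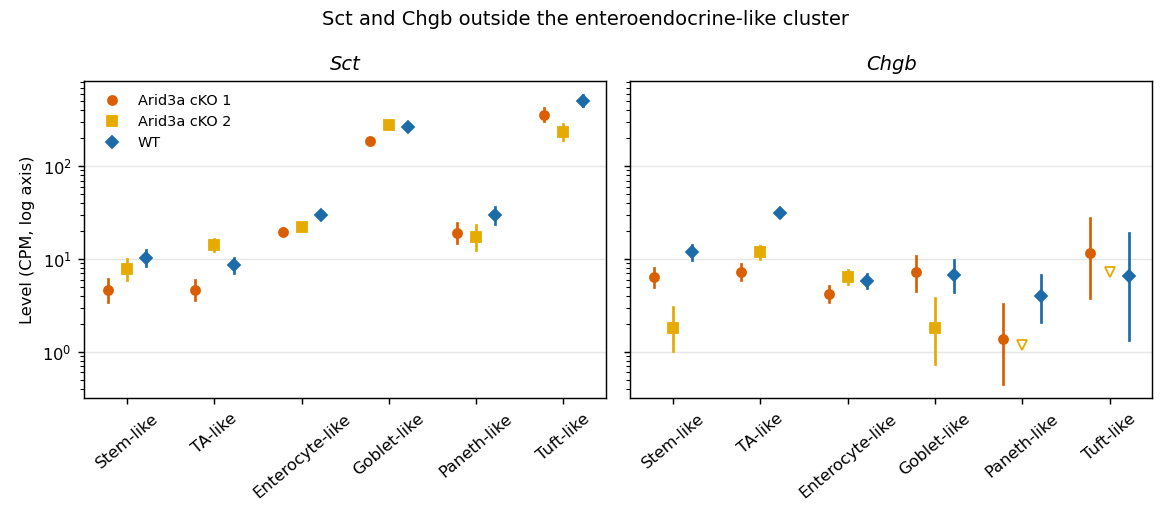
Level of Sct (left) and Chgb (right) in CPM (log axis) in other cell classes, leaving out cells in which members make up at least 0.5% of UMIs, with 95% counting intervals; open triangles are upper limits for 0 UMIs. Sct is highest in goblet-like and tuft-like cells in all 3 libraries, at 186.5 to 509 CPM, and Chgb stays at or below 31.3 CPM in every class.

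Other genes of the hormone cells were counted from lists written down for this purpose, within the enteroendocrine-like cells. Of 20 transcription factors 19 passed the 20 CPM limit and 1 was called higher, against 0.752% of all genes tested in these cells. It was Hhex, a factor known from somatostatin cells, at 134, 69.2 and 26.4 CPM. Neurod1 (704, 1001 and 1087 CPM), Sox4 (405.5, 594 and 351.5 CPM), Isl1 (609, 268 and 363 CPM) and Insm1 (329, 263 and 278 CPM) were the most abundant of the list and were not called. The median log2 ratio of the list was 0.08, against 0.07 for all genes.

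None of the 7 prohormone-processing genes that passed was called, among 8 on the list, with Cpe at 1226, 1008 and 1612 CPM, Pcsk1 at 687, 615 and 679 CPM, Pam at 360, 251 and 405 CPM and Pcsk1n at 308, 395 and 283 CPM. Nor was any of the 18 granule and exocytosis genes, with Scg2 at 984, 927 and 1693 CPM and Ddc, which completes serotonin synthesis, at 595, 509 and 552 CPM. Scg3 (376, 299.0 and 385 CPM) and Resp18 (330, 290 and 357 CPM) followed. Of all genes tested in these cells 0.905% were called in either direction, so no call in lists of this size sets them apart from other genes. Over all kept cells 1 processing gene passed the limit, Cpe, and was called lower. Of 2 granule genes that passed 1, Scg2, was called lower, against 0.281% of all genes. In the enteroendocrine-like cells Cpe had 1028, 816 and 2385 UMIs and Scg2 825, 750 and 2505, the most in WT. Whether either gene would pass the limit without WT was not tested, so these calls may lean on the library where the genes are high.

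Of 16 other gut hormone genes 5 passed, and 2 were called higher, against 0.752% of all genes tested in these cells. They were Iapp, the amylin gene, at 516, 853 and 188 CPM, and Cartpt at 223, 248 and 96.0 CPM. Tac1 (562, 442 and 914.7 CPM) and Pyy (228, 1186 and 216 CPM) were not called. Of 18 nutrient and signal receptor genes 11 passed and none was called, against 0.905% of all genes in either direction. Trpa1, the irritant-sensing channel of enterochromaffin cells, was at 280, 264 and 255.5 CPM, Ffar2 at 179, 168 and 174 CPM, Ffar1 at 148, 107.5 and 164 CPM and Abcc8 at 132, 74.1 and 128 CPM.

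Barcodes that failed the filters were also searched. Among them 13, 8 and 31 had at least 1% member UMIs (0.276%, 0.15% and 0.313%), against 48, 42 and 94 of the kept cells (2.25%, 2.71% and 4.92%). In these removed barcodes Sct was at 51.1, 33.1 and 48.9 CPM and Sst at 9.57, 6.37 and 8.69 CPM. Cck was at 61.3, 21.6 and 37.0 CPM and Nts at 1.20, 6.78 and 2.36 CPM. WT lay between the cKO libraries for each of these, and for Ghrl and Gcg, so Sct, Cck and Nts were not lower in both cKO libraries there. Chga, Chgb, Tph1 and Gip were highest in WT.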

How the data were processed

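Single-cell RNA-seq libraries of sorted crypt epithelium were grouped by the genotype in the labels. The authors aligned and counted reads with CellRanger 5.0.0, per the file headers, and deposited raw UMI counts per gene and barcode after CellRanger's barcode selection. The mouse build of the counting step is not given in the sources used here, and 51633 of 51912 gene identifiers were found in GENCODE M21 (GRCm38), the source of the coordinates. Separate animals are not named for the 2 cKO libraries.

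From the deposited counts, cells with at least 1000 genes and at most 15% mitochondrial UMIs were kept, and doublets were retained (Scrublet in scanpy 1.11.5, seed 1, marked 110 cells, 30 to 46 per library). Cells were integrated by CCA in Seurat 5.3.0 (R 4.3.3; 3000 features, 2000 for principal components, 30 components, resolution 0.3, finer groups at 0.8) without the 10 members. This gave 12 clusters. Clusters were named by counting class markers among the top 50 genes (3 or more needed). Where no class reached that, the name went to the class most of whose markers exceeded a fold of 1.5, if 3 or more did and no other class led the top 10 genes. This scoring was set after the clusters were seen, and 2 clusters (739 and 50 cells) stayed unnamed. The tuft-like cluster was shallow (median 9095 UMIs) but had 6 tuft markers among its top 10 genes.

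UMIs were summed per library and class and scaled to CPM. Intervals are 95% exact Poisson or Clopper-Pearson intervals and cover counting error only; for 0 counts the limit is 3 counts. Ratios are log2 of CPM + 5 over WT, which understates changes of genes near 5 CPM. With 1 WT library no test was run and no p-value is given. All members were named, with their 3 most similar genes and up to 4 genes per list by mean CPM, plus every called gene; 1 similar gene is not reported here. The members and lists were chosen with earlier results of these data known. Alternatives covered the filters, pseudocount, scaling (TMM, edgeR 4.0.16), clustering, positivity threshold, doublets, top cells and single cKO libraries.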

Additional observations from a re-analysis of the deposited data

How the results depend on the processing

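No paired analysis was possible because the sample labels record no pairing of cKO and WT libraries, and no test was run. Over all kept cells, Cck, Sct and Nts were below WT by a log2 ratio of at least 1 in both cKO libraries in 8 of 8 settings. In enteroendocrine-like cells Sst was above by that size in 9 of 9, and Sct and Nts below in 8 of 9, the exception being the mean over cells of per-cell CPM. The median over members for all kept cells (-0.82) was -0.89 with a pseudocount of 1, -1.21 without each gene's top cell, -1.10 without the unnamed cluster of high UMI counts (chosen after seeing the data) and -0.93 to -0.87 with either cKO library left out. In enteroendocrine-like cells (-0.18) it was -0.26 at 500 genes and 25% mitochondrial UMIs, -0.29 with TMM factors, -0.11 with per-cell CPM, -0.37 without top cells, -0.060 in cells with at least 5 markers and -0.016 to 0.044 with a cKO library left out. TMM moved the median of all genes there by -0.10, and Chgb and Tph1 changed side of WT.

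With a cKO library left out, 4 to 5 members were called in either set of cells: without Arid3a cKO 1, Gcg joined over all cells and Cck and Ghrl in enteroendocrine-like cells; without Arid3a cKO 2, Tph1 and Gip, and Gcg as higher. The cKO minus WT difference in the share of kept cells positive for at least 1 member (-3.39 points) moved to -13.4 points at 1 UMI after thinning to 21000 UMIs (392, 276 and 429 cells left out) and to -2.39 points at 100 per 10000. Within enteroendocrine-like cells, the median over members of the difference in positive share (-0.23 points) moved to -3.13 points in cells with at least 5 markers and -3.43 points after thinning to 7000 UMIs (6, 7 and 18 left out). The share of member UMIs in enteroendocrine-like cells became 97.8% with at least 5 markers and 93.8% without the unnamed cluster. The cKO minus WT difference in cells with at least 2 members positive (1.21 points) became -6.47 with the wider filter, -6.08 with at least 5 markers, 10.1 at 100 per 10000, -2.96 at resolution 0.8 and -1.16 to 3.59 with a cKO library left out. The causes were not tested. The single WT library and the 45, 43 and 86 hormone cells limit every value.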
